A study of Mus musculus with 9 samples.

Results

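Mitochondrial ribosomal proteins are the nuclear-encoded proteins of the mitochondrial ribosome. They were taken here as the protein-coding genes whose symbols begin with Mrpl (named for the large subunit) or Mrps (named for the small subunit) followed by a digit. Of 78 such genes, 77 had at least 10 counts in at least 3 libraries, and these 77 are 48 large and 29 small subunit genes among 55487 gene identifiers. All 77 were among the 13453 genes tested. The remaining gene, Mrpl53, did not reach that level, and another gene on the same strand covers most of its exons.

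The libraries are 9 RNA-seq libraries of J774A.1, a mouse macrophage line, in 3 groups of 3. One group carried a safe sgRNA, a control guide, and is labelled wild type. The other groups carried sgRNA 11 or sgRNA 15 against Slc12a9, which encodes a membrane protein of the cation-chloride cotransporter family. The labels call both of these groups SLC12A9 knockdown, whereas the series' design text calls such cells knockouts. All 3 groups came from medium with 10% serum and were kept in medium without serum and glutamine for 6 h before lysis. The question of the series was how gene expression differs between Slc12a9-targeted and safe-guide cells. The sources used here do not say whether the replicates were separate cultures or whether a guide stands for 1 clone, so p-values measure the spread between these libraries, which may be technical.

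The mitochondrial ribosome translates the few mRNAs of mitochondrial DNA, which encode core subunits of the respiratory chain and of ATP synthase. Its rRNAs come from mitochondrial DNA, whereas its proteins are made in the cytosol from nuclear genes and imported. The large subunit holds the peptidyl transferase centre and the exit tunnel, and the small subunit reads the mRNA. Many of the proteins have bacterial homologs, and others are found only in mitochondria.

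Genes for this ribosome were mostly lower in the libraries with either Slc12a9 guide, with a median change of -17.5% with sgRNA 11 and -16.5% with sgRNA 15, and genes of both subunits fell. With sgRNA 11, 55 of 77 members fell and 5 rose, where 65.8% of all 13453 genes were called (33.3% higher, 32.4% lower). With sgRNA 15, 52 fell and 4 rose, where 62.9% of all genes were called (32.2% higher, 30.7% lower). Calls are those of edgeR's quasi-likelihood test at a Benjamini-Hochberg adjusted p below 0.05. By the mean of both guides the largest falls were those of Mrpl12, Mrps6 and Mrpl18, and the small subunit had no gene that rose.

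Promoter windows from RefSeq (GRCm38.p6, 250 bases before to 50 after the start) matched 68 of the 77 members. These windows are shown because NRF1 and GABPA, the nuclear respiratory factors, and YY1 are known regulators of nuclear genes for mitochondrial proteins. The NRF1 motif, searched on both strands as GCGCA, any base and GCGC, was in 19.1% of the member windows (13) and in 4.78% of all 27025 windows. The GABPA motif, searched as CCGGAAGT, was in 16.2% (11) against 4.0%. The YY1 motif, searched as AAGATGGCG, was in 11.8% (8) against 1.49%. The E-box CACGTG was in 7.35% of member windows and 7.24% of all windows, and the ATF4 motif TGATGNAA was in 0 of 68 against 4.06%. No searched motif contains another, and the member windows had a higher median GC content (58.2% against 52.7%). The 27025 windows are 1 per gene and include genes that were not among the 13453 tested, whereas all members were. These shares therefore do not show whether members hold more matches than other expressed genes. The windows of the 48 members that fell with the mean of both guides did not hold more of every motif than those of the 20 others: NRF1 was in 20.8% against 15.0% and YY1 in 14.6% against 5.0%, whereas GABPA was in 14.6% against 20.0% and the E-box in 6.25% against 10.0%. With so few windows these shares are a description and were not tested. A match describes the letters of a window and is not a measured binding site.

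The first 3 stretches below are examples of a match in the bases upstream of annotated exons, from members that fell, and Mrpl24, the member that rose most, is shown as one with none of the 5 motifs. Matches were not limited to members that fell: Mrpl57, which rose by the mean of both guides, holds an NRF1 match, Mrpl2, which also rose, holds an E-box, and Mrpl44 and Mrps9, which were not called, hold NRF1 matches. Capitals mark the whole match, and each run is written along the gene's strand. They are an NRF1 match on the opposite strand in Mrpl12 at positions -81 to -72 from the start (chr11:120484387-120484612, plus strand), an NRF1 match in Mrpl17 at -49 to -40 (chr7:105811100-105811337, minus strand) and a GABPA match in Mrps22 at -11 to -4 (chr9:98601680-98601929, minus strand). The Mrpl24 stretch is chr3:87919294-87919505, plus strand.
Mrpl12: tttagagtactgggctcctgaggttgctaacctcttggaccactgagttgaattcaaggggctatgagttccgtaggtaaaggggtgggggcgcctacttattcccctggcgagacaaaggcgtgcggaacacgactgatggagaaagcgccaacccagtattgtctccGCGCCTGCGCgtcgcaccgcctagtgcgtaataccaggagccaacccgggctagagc
Mrpl17: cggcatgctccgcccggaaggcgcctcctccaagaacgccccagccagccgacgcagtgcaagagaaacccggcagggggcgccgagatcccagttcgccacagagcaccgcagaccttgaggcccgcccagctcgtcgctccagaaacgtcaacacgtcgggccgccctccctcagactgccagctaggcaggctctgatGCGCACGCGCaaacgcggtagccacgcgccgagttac
Mrps22: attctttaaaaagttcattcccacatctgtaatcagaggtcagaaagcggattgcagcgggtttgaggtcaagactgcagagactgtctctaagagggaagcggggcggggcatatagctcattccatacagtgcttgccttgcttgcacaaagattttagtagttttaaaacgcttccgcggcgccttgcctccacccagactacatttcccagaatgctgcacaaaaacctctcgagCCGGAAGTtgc
Mrpl24: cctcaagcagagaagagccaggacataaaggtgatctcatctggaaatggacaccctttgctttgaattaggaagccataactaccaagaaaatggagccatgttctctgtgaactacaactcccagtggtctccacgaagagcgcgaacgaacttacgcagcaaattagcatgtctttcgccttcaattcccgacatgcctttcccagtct

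Depth was 16405296 to 25613961 gene counts per library, of which the members took 0.341 to 0.406%, or 58138 to 103192 counts. Levels are given as CPM, counts scaled to a common library size after TMM scaling of library sizes. The median coefficient of variation within groups was 4.09% for members and 5.53% for all genes tested. Slc12a9 itself was not lowered: it had 44.8, 53.5 and 47.0 CPM in the safe libraries, 62.6, 66.3 and 67.0 CPM with sgRNA 11, and 48.2, 50.01 and 51.7 CPM with sgRNA 15. Whole-gene counts do not show whether a guide cut its target and give no check of these labels, so each group is named throughout for the guide on its label. All 10 macrophage markers were expressed, and their summed level was 5558 to 5645 CPM in safe libraries, 9175 to 9291 with sgRNA 11 and 7424 to 7507 with sgRNA 15. The highest marker alone had a mean of 3278 CPM, and the markers did not share 1 direction. With sgRNA 11, 7 were called higher and 2 lower, where 33.3% of all genes were higher and 32.4% lower. With sgRNA 15, 6 were higher and 3 lower, where 32.2% of all genes were higher and 30.7% lower. No marker of the 7 other cell types had a mean above 3.24 CPM, and the erythroid markers were at 0. In bulk RNA, fewer cells of a kind and less RNA per cell cannot be told apart. The part of the macrophage marker level in the results was not tested.

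Summed over the 48 large subunit genes, the safe libraries had 2708, 2723 and 2717 CPM. The sgRNA 11 libraries had 2258, 2221 and 2296 CPM, and the sgRNA 15 libraries had 2309, 2253 and 2341 CPM. Every library with an Slc12a9 guide thus lay below every safe library, and the 2 guides overlapped. The group means were 2716 ± 7.46, 2259 ± 37.7 and 2301 ± 44.7 CPM (SD, n = 3), so that the sum fell by 16.8% with sgRNA 11 and by 15.3% with sgRNA 15.

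The 29 small subunit genes summed to 1412, 1390 and 1405 CPM in the safe libraries. They summed to 1138, 1142 and 1156 CPM with sgRNA 11 and to 1166, 1144 and 1177 CPM with sgRNA 15. The safe libraries again lay above all others, with no overlap. The mean went from 1403 ± 11.0 CPM to 1145 ± 9.53 and 1162 ± 17.1 CPM (SD, n = 3), a sum that fell by 18.3% and by 17.1%. The ratio of the large to the small subunit sum was 1.92 to 1.96 in safe libraries, 1.95 to 1.99 with sgRNA 11 and 1.97 to 1.99 with sgRNA 15. The ratio overlapped between safe and sgRNA 11 libraries, and the sgRNA 15 libraries lay just above the safe ones.

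**Figure D1:**
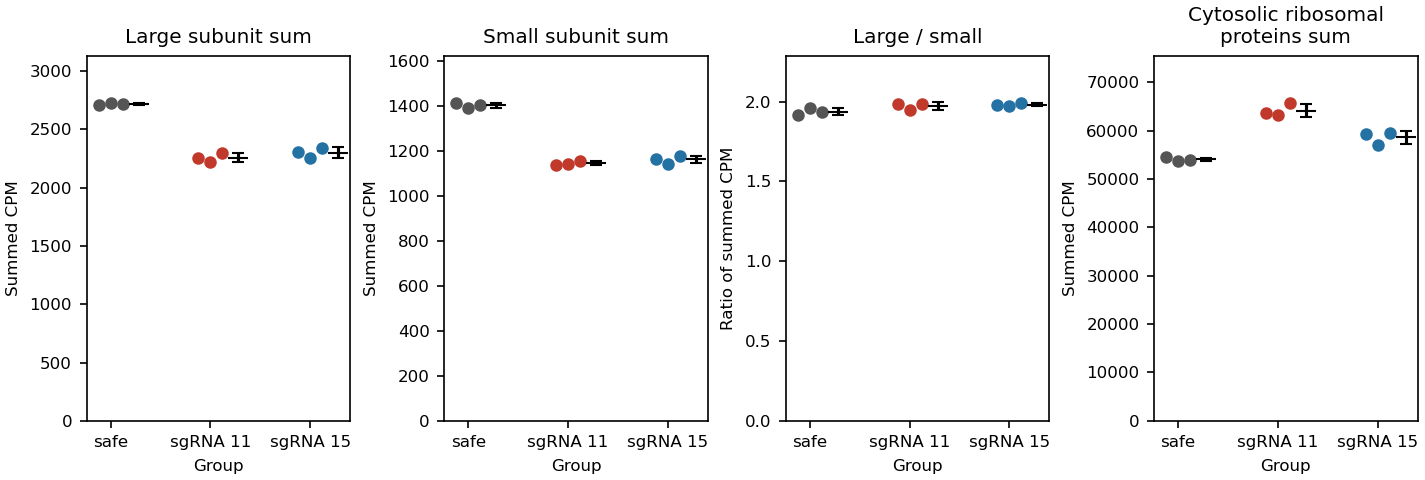
Summed CPM of the large subunit genes, of the small subunit genes and of the cytosolic ribosomal protein genes, and the ratio of large to small, in each library (points), with the mean ± SD of 3 libraries beside them (bars) and every vertical axis starting at 0. Both mitochondrial sums are lower with either guide (large subunit means 2716, 2259 and 2301 CPM), the ratio stays between 1.92 and 1.99, and the cytosolic sum is higher (means 54074, 64181 and 58604 CPM).

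The test covered all 13453 genes, of which most were called with each guide, in nearly equal numbers higher and lower. The members' split was uneven beside this background: 71.4% of members were lower with sgRNA 11, against 32.4% of all genes, and 67.5% with sgRNA 15, against 30.7%. The median log2 fold change of the members was -0.28 with sgRNA 11 and -0.26 with sgRNA 15, compared with 0.01 for all genes with each guide. The 2 comparisons share the 3 safe libraries, and no member was called in opposite directions by them. By the mean of both guides, for which 68.0% of all genes were called (34.7% higher, 33.3% lower), 54 members fell, 5 rose and 18 were not called.

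The large subunit had 32 lower and 5 higher genes of 48 with sgRNA 11, and 30 lower and 4 higher with sgRNA 15. Its median log2 fold change was -0.23 with sgRNA 11 and -0.22 with sgRNA 15. The small subunit had 23 lower and 0 higher genes of 29 with sgRNA 11, and 22 lower and 0 higher with sgRNA 15. Its median was -0.31 with sgRNA 11 and -0.28 with sgRNA 15. These are descriptions of the 2 subunits, with no test between them. In 52 members all 3 sgRNA 11 libraries were below all 3 safe libraries, and in 6 all were above. For all genes these shares were 33.3% below and 34.3% above, against 67.5% and 7.79% of members. With sgRNA 15, 50 members lay below and 8 above, against 32.3% and 33.5% of all genes.

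**Figure D2:**
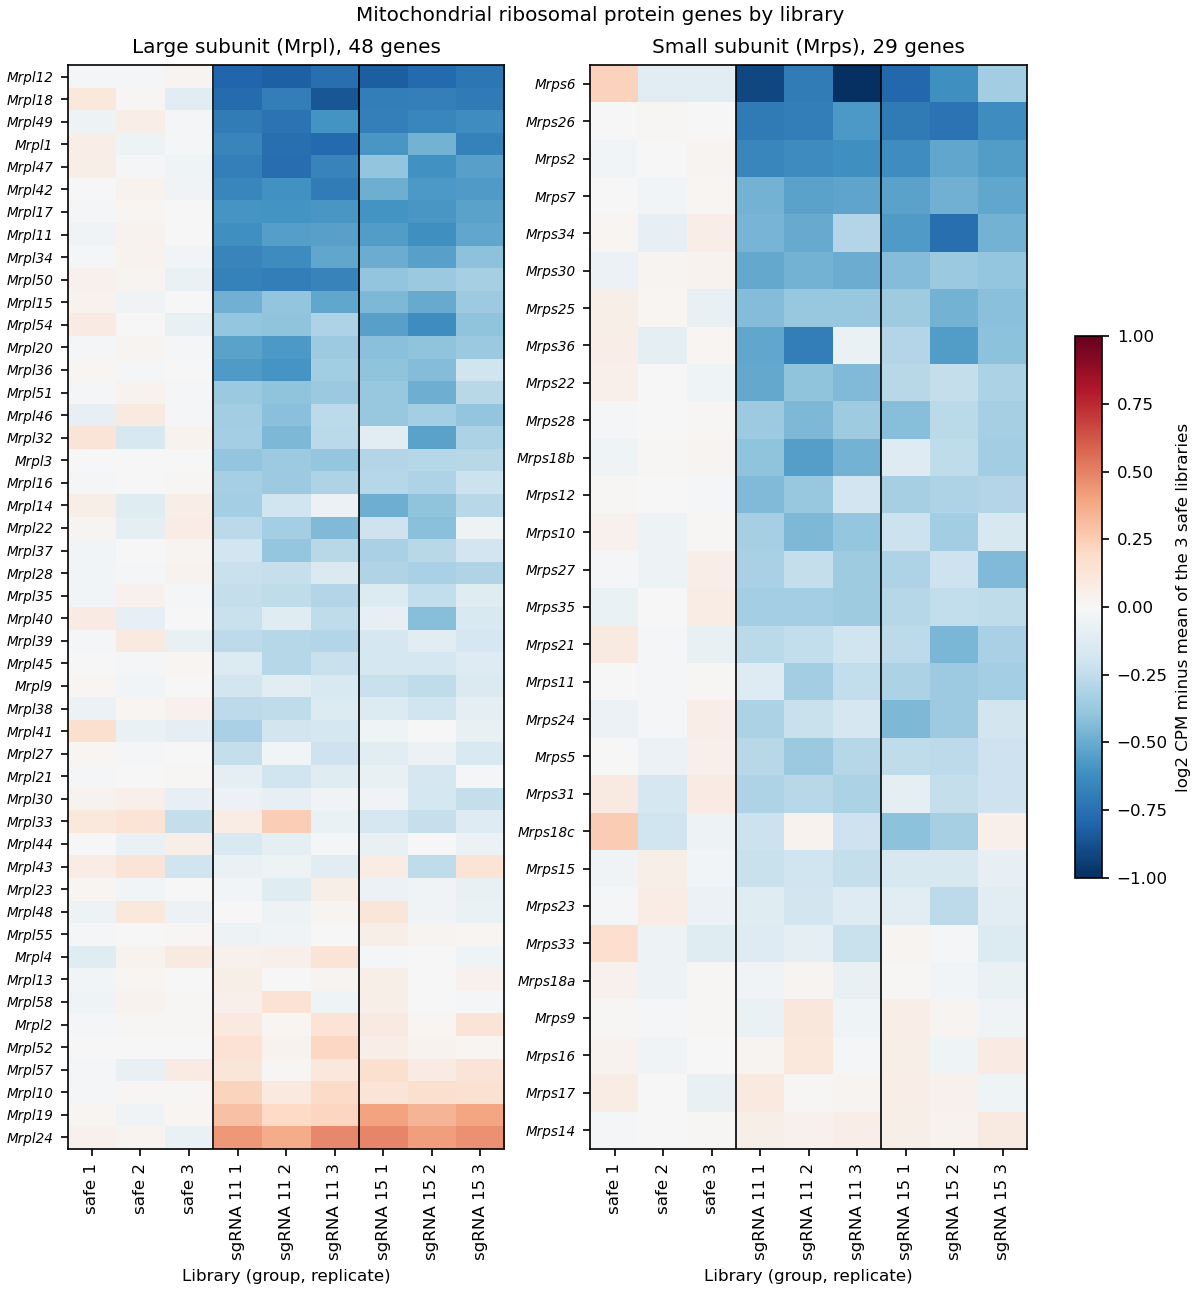
Log2 CPM of each member in each of the 9 libraries, minus its mean over the 3 safe libraries, with large subunit genes on the left and small subunit genes on the right, ordered by the change for the mean of both guides (blue lower, red higher). The blue columns of the sgRNA 11 and sgRNA 15 libraries run through most rows of both panels, from Mrpl12 and Mrps6 at the top, and the red rows at the foot of the left panel are Mrpl24, Mrpl19 and Mrpl10.

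Mrpl12 (ENSMUSG00000039640, chr11:120484613-120489065 in mm10) encodes the stalk protein that meets the elongation factors. It had 210, 211 and 217 CPM in safe libraries, 122, 120 and 126 CPM with sgRNA 11, and 120, 124 and 129 CPM with sgRNA 15. The safe libraries stood well apart from the rest, and the 2 guides overlapped. Mrpl12 fell by 42.1% with sgRNA 11 (log2 fold change -0.79, SE 0.03, edgeR adjusted p = 2.39e-39) and by 41.6% with sgRNA 15 (-0.77, SE 0.03, adjusted p = 1.3e-38). An antisense model, Gm16755, covers 13.1% of its exons, and with the strand setting of the counting not given, such overlapping members are uncertain. The genes of the other stalk proteins differed in direction. Mrpl11, at the stalk base, fell by 0.57 on the log2 scale with each guide. Mrpl10, which anchors the stalk, had 42.8, 43.7 and 43.9 CPM in safe libraries, 50.8, 46.5 and 49.7 CPM with sgRNA 11 and 47.5, 48.6 and 48.4 CPM with sgRNA 15. All 6 libraries with an Slc12a9 guide were above the safe ones, and Mrpl10 rose by 0.18 with sgRNA 11 (SE 0.05, edgeR adjusted p = 0.00114) and 0.15 with sgRNA 15 (SE 0.05, adjusted p = 0.00677) on the log2 scale. An antisense model, Gm11574, covers 14.1% of the Mrpl10 exons, and the sgRNA 11 call was lost after a correction for GC content and exon length (0.10).

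Mrpl18 (chr17:12911349-12916345) encodes a protein of the central protuberance, the crest of the large subunit. Its level was 69.0, 64.9 and 59.3 CPM in safe libraries, 37.6, 39.7 and 35.6 CPM with sgRNA 11 and 39.7, 40.1 and 39.3 CPM with sgRNA 15. No library with a guide came near the lowest safe library, and the log2 fold changes were -0.78 and -0.70 (SE 0.05 each, edgeR adjusted p = 9.33e-25 and 5.03e-22). Exons of Tcp1 on the opposite strand cover 10.1% of the Mrpl18 exons. Of the 7 genes placed in the central protuberance, 4 fell by the mean of both guides (Mrpl18, Mrpl46, Mrpl40 and Mrpl38) and 0 rose. By that mean 70.1% of all members fell, and 33.3% of all genes fell and 34.7% rose. Exons of Mrps11 on the opposite strand cover 12.2% of the Mrpl46 exons. Mrpl48, Mrpl52 and Mrpl58, which encodes a peptidyl-tRNA hydrolase built into the ribosome, were not called by that mean. With sgRNA 11 alone Mrpl52 was called higher. It had 34.5, 34.2 and 34.4 CPM in safe libraries, 37.9, 35.2 and 39.7 CPM with sgRNA 11 and 36.01, 35.3 and 34.9 CPM with sgRNA 15, all guide libraries lying above the safe ones. Mrpl52 rose by 0.13 on the log2 scale with sgRNA 11 (SE 0.06, edgeR adjusted p = 0.0296) and differed by 0.04 with sgRNA 15 (adjusted p = 0.529). That call was lost with DESeq2 (0.12), after the GC and length correction (0.07), and without safe replicate 2 (0.12), safe replicate 3 (0.12), sgRNA 11 replicate 1 (0.14) or sgRNA 11 replicate 3 (0.08).

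Mrpl49 (chr19:6053622-6057785), a mitochondria-specific protein, had 60.4, 65.5 and 62.1 CPM in safe libraries, 38.5, 37.6 and 41.3 CPM with sgRNA 11 and 39.1, 39.9 and 40.7 CPM with sgRNA 15. The safe libraries were all higher, and the change was -0.68 with sgRNA 11 and -0.65 with sgRNA 15 (SE 0.05 each, edgeR adjusted p = 5.79e-22 and 6.04e-21). Mrpl1, homolog of the bacterial protein of the mobile stalk beside the tRNA exit, had 22.5, 20.7 and 21.1 CPM in safe libraries, 13.5, 12.7 and 12.5 CPM with sgRNA 11 and 14.3, 15.4 and 13.4 CPM with sgRNA 15. Its groups of guide libraries overlapped each other but not the safe group, and the changes were -0.74 and -0.57 (SE 0.08 each, edgeR adjusted p = 1.94e-13 and 1.13e-09).

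At the exit of the peptide tunnel, 4 of 7 genes fell and 1 rose by the mean of both guides. These were 57.1% and 14.3%, against 33.3% and 34.7% of all genes. Mrpl47 (chr3:32725397-32737605) had 29.0, 27.7 and 27.1 CPM in safe libraries, 17.4, 16.5 and 17.5 CPM with sgRNA 11 and 21.2, 18.3 and 19.2 CPM with sgRNA 15. The 3 groups did not overlap, with sgRNA 11 lowest, and the changes from safe were -0.71 and -0.52 (SE 0.07 each, edgeR adjusted p = 6.6e-15 and 5.87e-10). Exons of Actl6a and Ndufb5 on the opposite strand cover 24.2% of the Mrpl47 exons. Mrpl17, Mrpl22 and Mrpl45, whose protein helps tether the ribosome to the inner membrane, fell by 0.58, 0.29 and 0.18 on the log2 scale. Mrpl24 (chr3:87919506-87923672) went the other way. Its level was 38.9, 38.3 and 35.9 CPM in safe libraries, 50.9, 48.7 and 52.6 CPM with sgRNA 11 and 52.8, 50.5 and 51.9 CPM with sgRNA 15. Every guide library was above every safe library, and Mrpl24 rose by 34.5% and 36.8% (log2 fold changes 0.43 and 0.45, SE 0.05 each, edgeR adjusted p = 3.56e-12 and 5.62e-13). Exons of Rrnad1 on the opposite strand cover 26.3% of the Mrpl24 exons.

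Mrpl19 (chr6:81957851-81965958), whose bacterial homolog lies at the face between the subunits, had 89.9, 86.6 and 90.04 CPM in safe libraries, 109, 102 and 103 CPM with sgRNA 11 and 117, 112 and 117 CPM with sgRNA 15. The 3 groups stood in that order without overlap, and Mrpl19 rose by 0.23 and 0.38 on the log2 scale (SE 0.04 each, edgeR adjusted p = 2.1e-08 and 5.6e-16). Exons of Gcfc2 on the opposite strand cover 36.0% of its exons. The other 2 members that rose by the mean of both guides changed little. Mrpl57 (0.10, edgeR adjusted p = 0.0258) and Mrpl2, homolog of a core protein near the peptidyl transferase centre (0.08, adjusted p = 0.0202), each passed the test with 1 guide only. Both calls were lost with DESeq2 (adjusted p = 0.0857 for Mrpl57 and 0.0761 for Mrpl2). They were also lost without safe replicate 1 (0.10 and 0.07), safe replicate 2 (0.06 and 0.08), sgRNA 11 replicate 3 (0.09 and 0.06) or sgRNA 15 replicate 3 (0.09 and 0.06). That of Mrpl57 was lost without sgRNA 15 replicate 1 (0.10) too, and that of Mrpl2 without safe replicate 3 (0.07). After the GC and length correction Mrpl2 was at 0.01 (adjusted p = 0.804). Of the 5 members that rose, 3 share exons with another gene (Mrpl24, Mrpl19 and Mrpl10) and are uncertain. Among the 60 members with under 10% of their exons shared with another gene, 42 fell and 2 rose by the mean of both guides. These shares are 70% and 3.33%, beside 33.3% and 34.7% of all genes.

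Among small subunit genes, Mrps26 (chr2:130563742-130568695), which encodes a mitochondria-specific protein, combined a high level with a large change. It had 134, 135 and 134 CPM in safe libraries, 82.0, 83.2 and 90.1 CPM with sgRNA 11 and 82.0, 80.2 and 87.4 CPM with sgRNA 15. The safe libraries lay far above both overlapping guide groups, and Mrps26 fell by 36.5% and by 38.1% (log2 fold changes -0.66 and -0.69, SE 0.04 each, edgeR adjusted p = 7.29e-29 and 4.37e-30). Mrps6 (chr16:92058270-92112227), homolog of a bacterial platform protein, was a low gene, with 9.34, 7.33 and 7.34 CPM in safe libraries, 4.18, 4.85 and 3.90 CPM with sgRNA 11 and 4.59, 5.17 and 6.23 CPM with sgRNA 15. All its libraries with a guide were below the safe group, and its errors were wide, with changes of -0.91 (SE 0.14, edgeR adjusted p = 7.29e-09) and -0.61 (SE 0.13, adjusted p = 3.32e-05). Same-strand genes share 19.9% of the Mrps6 exons.

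Mrps2 (chr2:28468066-28471178), homolog of a bacterial small subunit protein, had 74.1, 75.2 and 77.1 CPM in safe libraries, 47.9, 48.7 and 49.2 CPM with sgRNA 11 and 49.1, 52.6 and 51.3 CPM with sgRNA 15. Mrps7 (chr11:115603925-115608036), a protein of the subunit's head, had 69.99, 68.3 and 70.8 CPM in safe libraries, 50.1, 48.04 and 48.2 CPM with sgRNA 11 and 47.99, 49.8 and 48.7 CPM with sgRNA 15. In both genes the guide libraries were close together and all below the safe ones. Mrps2 fell by 0.63 and 0.56 on the log2 scale (SE 0.04 each, edgeR adjusted p = 7.03e-23 and 5.12e-20), and Mrps7 fell by 0.51 with each guide. Opposite-strand genes share 11.9% of the Mrps7 exons.

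Mrps34 (chr17:24895116-24897502), a mitochondria-specific protein needed for a stable small subunit, had 38.9, 36.3 and 40.2 CPM in safe libraries, 27.8, 27.1 and 31.4 CPM with sgRNA 11 and 25.9, 22.7 and 27.7 CPM with sgRNA 15. All guide libraries were lower than the safe ones, with changes of -0.42 and -0.61 (SE 0.06 each, edgeR adjusted p = 7.87e-09 and 4.41e-14). Overlaps on both strands are large, 37.0% on the same strand and 63.4% on the opposite one. The 3 genes placed at the decoding site or the mRNA channel, Mrps12, Mrps24 and Mrps5, all fell with each guide, and their changes were -0.32, -0.28 and -0.28 by the mean of both guides. A gene on the same strand shares 15.4% of the Mrps24 exons. Among all genes, 32.4% fell with sgRNA 11 and 30.7% with sgRNA 15.

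Symbols and structure disagree for a few members. Mrps30 and Mrps18a are named for the small subunit but their proteins sit in the large one. Mrps30 had 25.4, 27.0 and 27.1 CPM in safe libraries, 18.6, 19.02 and 18.8 CPM with sgRNA 11 and 19.6, 20.4 and 20.2 CPM with sgRNA 15, and fell by 0.49 and 0.40 on the log2 scale (SE 0.07 each, edgeR adjusted p = 1.32e-09 and 4.78e-07). Mrps18a differed by -0.03 with each guide and was not called, but it was called at -0.15 by the mean of both guides after a correction for GC content and exon length. Its paralogs are part of the small subunit. Mrps18b fell by 0.47 with sgRNA 11 and by 0.24 with sgRNA 15, and Mrps18c, at 3.14 to 5.03 CPM over all libraries, was not called (-0.21 by the mean of both guides, SE 0.14), although without sgRNA 15 replicate 3 it passed with sgRNA 15 (-0.42, edgeR adjusted p = 0.0490). Exon overlap makes Mrps18b and Mrps18c uncertain. Mrps36 encodes a subunit of the 2-oxoglutarate dehydrogenase complex and not of the ribosome, and it fell by 0.41 by the mean of both guides (SE 0.09, edgeR adjusted p = 8.05e-05).

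Members with a bacterial homolog and mitochondria-specific members both fell in most cases. Their shares lower by the mean of both guides were 68.75% and 71.4%, near the 70.1% of all members. By that mean 33.3% of all genes fell and 34.7% rose. By the mean of both guides, 21 of 30 large subunit homologs fell and 4 rose (median -0.27), and 12 of 18 small subunit homologs fell and 0 rose (median -0.29). Of the mitochondria-specific genes, 11 of 18 in the large subunit fell and 1 rose (median -0.20), and 9 of 10 in the small subunit fell and 0 rose (median -0.34). The members lie on 17 chromosomes, with 11 on chromosome 11 and 8 on chromosome 17. The members that were not called included Mrps9, Mrps14, Mrps16 and Mrps17 in the small subunit and Mrpl4, Mrpl13, Mrpl23 and Mrpl55 in the large one, each within 0.06 of no change on the log2 scale.

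**Figure D3:**
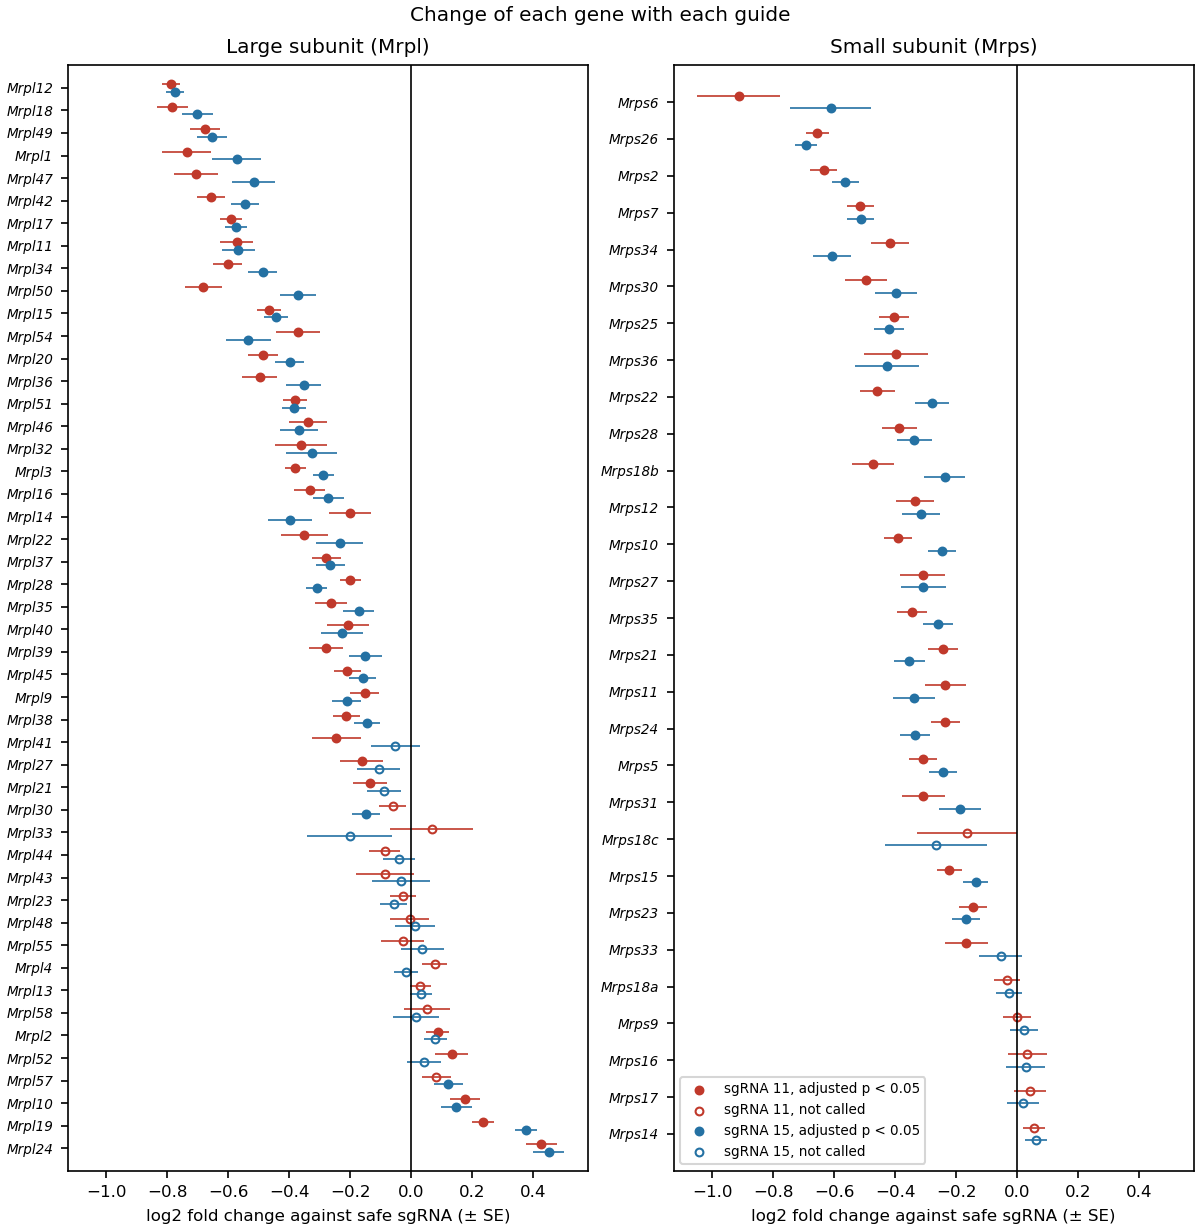
Log2 fold change of every member with sgRNA 11 and with sgRNA 15 against the safe libraries (points, ± SE), filled where the edgeR adjusted p is below 0.05, with large subunit genes on the left and small subunit genes on the right. Most points lie left of 0 for both guides, from -0.79 and -0.77 for Mrpl12, and the filled points to the right of 0 are all large subunit genes. Both guides are compared with the same 3 safe libraries.

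Levels between genes were compared as RPKM, CPM per kilobase of summed exon length. Mrpl12 was highest, at 99.9 RPKM over all libraries, followed by Mrpl34 (89.6) and Mrpl2 (78.8). Mrpl12 went from 139 ± 2.59 RPKM in safe libraries to 80.2 with sgRNA 11 and 81.1 with sgRNA 15 (SD, n = 3). Mrpl34 went from 113 ± 2.44 to 74.5 and 81.0 RPKM. Mrpl2 was 75.8 ± 0.833, 80.4 and 80.2 RPKM, so that it ranked first with sgRNA 11, where it and Mrpl12 were close together. The lowest members were Mrpl33 (0.740 RPKM), Mrps30 (3.27) and Mrpl48 (3.36). This order depends on the length used. Divided by the longest coding transcript in place of all exons, Mrpl12 stayed first, Mrpl28 and Mrps21 followed, and Mrpl34 and Mrpl2 ranked 5 and 6. The lowest were then Mrpl1 (4.56 RPKM) and Mrps18c (4.75 RPKM), Mrps30 and Mrpl48 ranked 72 and 74, and Mrpl33 was at 11.3 RPKM and rank 62.

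The 2 guides were compared directly as sgRNA 15 against sgRNA 11, which needs no safe library. Of all genes, 33.5% were called (18% higher, 15.5% lower with sgRNA 15), and of the 77 members 7 were higher and 3 lower (9.09% and 3.90%). The median member difference was 0.02 on the log2 scale, and that of all genes was 0.01. All 3 sgRNA 15 libraries were above all 3 sgRNA 11 libraries in 16 members and below in 4, compared with 22.8% and 20.0% of all genes. The largest difference was in Mrpl50, a mitochondria-specific large subunit gene with 38.1, 37.7 and 35.2 CPM in safe libraries, 23.2, 22.9 and 23.2 CPM with sgRNA 11 and 28.1, 28.6 and 29.4 CPM with sgRNA 15. The 3 groups were wholly apart, and Mrpl50 fell by 37.6% with sgRNA 11 and by 22.6% with sgRNA 15, a difference of 0.31 (SE 0.06, edgeR adjusted p = 3.08e-05).

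The other genes higher with sgRNA 15 than with sgRNA 11 were Mrps18b (0.24), Mrpl47 (0.19), Mrps22 (0.18), Mrps10 (0.15), Mrpl19 (0.14) and Mrpl3 (0.09). Mrps22, a mitochondria-specific small subunit gene, had 40.8, 39.2 and 38.3 CPM in safe libraries, 27.6, 29.8 and 29.0 CPM with sgRNA 11 and 32.6, 33.3 and 31.6 CPM with sgRNA 15, with no overlap between groups. Except for Mrpl19, all of these were below the safe libraries with both guides, and less so with sgRNA 15. Mrpl14 (-0.20), Mrps34 (-0.19) and Mrpl28 (-0.11) were lower with sgRNA 15. Mrpl28 had 118, 119 and 123 CPM in safe libraries, 103, 102 and 108 CPM with sgRNA 11 and 97.2, 95.8 and 97.4 CPM with sgRNA 15, and its 3 groups were apart. Exons of Tmem63b on the opposite strand cover 11.2% of the Mrpl14 exons. After the GC and length correction all 3 lost their call, at -0.09 for Mrpl14 (edgeR adjusted p = 0.445), -0.11 for Mrps34 (0.232) and -0.0153 for Mrpl28 (0.789). Mrpl47 (0.13, adjusted p = 0.190), Mrps10 (0.09, 0.136) and Mrpl3 (0.03, 0.508) lost it too, so that only Mrpl50, Mrps18b, Mrps22 and Mrpl19 kept theirs under that correction. With DESeq2, Mrpl14, Mrps34, Mrpl47 and Mrpl3 were not called. Mrpl50 and Mrpl19 kept their call when any 1 library was left out, and the other 8 lost it without at least 1. Mrps18b lost it without sgRNA 15 replicate 1 (0.17) and Mrpl28 without sgRNA 11 replicate 3 (-0.09). Mrps22 lost it without sgRNA 11 replicate 1 (0.14) or sgRNA 15 replicate 2 (0.15), and Mrps34 without sgRNA 11 replicate 3 (-0.13) or sgRNA 15 replicate 2 (-0.12). Mrps10 lost it without sgRNA 11 replicate 2 (0.11), sgRNA 15 replicate 1 (0.12) or sgRNA 15 replicate 3 (0.10). Mrpl14 lost it without sgRNA 11 replicate 3 (-0.13), sgRNA 15 replicate 1 (-0.16) or sgRNA 15 replicate 2 (-0.20). The call of Mrpl3 was lost without sgRNA 11 replicate 1 (0.08) or 3 (0.08) or any 1 sgRNA 15 library (0.09 each). The call of Mrpl47 was held only without safe replicate 3 or sgRNA 15 replicate 2, and its difference was 0.12 without sgRNA 15 replicate 1.

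A further 5 proteins of the ribosome have other symbols, and 3 of these genes fell by the mean of both guides and 0 rose. By that mean 33.3% of all genes fell and 34.7% rose. Ptcd3, a small subunit protein with RNA-binding repeats, fell by 0.74 on the log2 scale (SE 0.03, edgeR adjusted p = 2.96e-38), from 141 ± 0.855 CPM in safe libraries to 82.1 ± 2.51 and 86.9 ± 3.36 CPM (SD, n = 3). Dap3, a small subunit GTP-binding protein, fell by 0.30 (SE 0.03, adjusted p = 7.85e-13). Gadd45gip1, a large subunit protein, had 3.18 ± 0.361 CPM in safe libraries, 2.40 ± 0.332 with sgRNA 11 and 1.68 ± 0.477 with sgRNA 15. It passed the test with sgRNA 15 and not with sgRNA 11. Chchd1 (-0.08) and Aurkaip1 (0.04), both of the small subunit, were not called.

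Other steps of mitochondrial translation are given by the mean of both guides, for which 33.3% of all genes were lower and 34.7% higher. No test was made between these lists and the members, whose median was -0.28. Of 14 tested translation factors 7 fell and 2 rose (50% and 14.3%, median -0.15). Gfm1, the elongation factor that moves the ribosome along, fell by 0.57, Mtfmt, which formylates the initiator tRNA, by 0.55, and Tufm, which delivers tRNAs, by 0.28 on the log2 scale, whereas Mtif2, the initiation factor, rose by 0.57. Of 26 genes for assembly and rRNA modification 10 fell and 7 rose (38.5% and 26.9%, near the shares of all genes, median -0.11). The 4 with the smallest p, Fastkd2, Rcc1l, Noa1 and Rpusd4, fell by 0.60, 0.60, 0.41 and 0.41, and the largest rise in the list was 0.72. Of 20 genes for transcription and RNA processing 12 fell and 2 rose (60% and 10%, median -0.28, as for the members). Those named fell: Grsf1, an RNA granule protein (-0.43), Pnpt1, a ribonuclease (-0.48), and Elac2 and Trmt10c, which process tRNA ends (-0.47 and -0.67). Of 17 mitochondrial tRNA synthetases 6 fell and 5 rose (35.3% and 29.4%, median -0.09). Yars2, for tyrosine, fell by 0.87 and Aars2, for alanine, by 0.33, and Tars2, for threonine, rose by 0.39.

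Among the RNAs of mitochondrial DNA both rRNAs fell, whereas the mRNAs differed in direction. Of 13 mRNAs 6 fell and 3 rose by the mean of both guides (46.2% and 23.1%, against 33.3% and 34.7% of all genes). The guides differed in this. With sgRNA 11, 6 fell and 1 rose (46.2% and 7.69%, against 32.4% and 33.3% of all genes). With sgRNA 15, 3 fell and 3 rose (23.1% each, against 30.7% and 32.2%). The direct comparison called 5 of the 13 higher with sgRNA 15 and 0 lower, where 33.5% of all genes were called. The summed CPM of these mRNAs fell by 14.1% with sgRNA 11 and by 7.67% with sgRNA 15. mt-Nd1 went from 2945 ± 189 CPM to 1563 ± 40.9 and 1661 ± 11.0 CPM (SD, n = 3; -0.87, edgeR adjusted p = 3.63e-12). mt-Nd2 fell by 0.28, and mt-Nd3, at a mean under 2 CPM, by 1.33, whereas mt-Nd4 rose by 0.23. The 2 rRNAs of the mitochondrial ribosome, mt-Rnr1 of the small and mt-Rnr2 of the large subunit, fell by 1.16 (SE 0.14) and 1.07 (SE 0.04). Per the labels' protocols the RNA was selected for poly(A) and depleted of rRNA, so these 2 values count the rRNA that passed both steps.

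Of 9 tested regulators of such genes 7 fell and 1 rose by the mean of both guides (77.8% and 11.1%). The shares of all genes were 33.3% and 34.7% by that mean. Pprc1 and Ppargc1b, coactivators of the nuclear respiratory factors, fell by 0.58 and 0.62 (edgeR adjusted p = 4.1e-29 and 1.14e-10). Nrf1 went from 68.2 ± 0.679 CPM to 55.7 ± 1.10 and 54.8 ± 1.63 CPM (SD, n = 3) and fell by 0.30. Whether the level of any regulator bears on the members was not tested. Myc, a transcription factor with many ribosomal targets, fell by 0.77. The nuclear subunits of the respiratory chain and ATP synthase had 44 lower and 17 higher genes of 80 by the same mean. These were 55% and 21.25%, against 33.3% and 34.7% of all genes, with a median of -0.13.

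Genes for the proteins of the cytosolic ribosome went the other way. Of 80 genes 57 rose and 5 fell by the mean of both guides (71.25% and 6.25%, against 34.7% and 33.3% of all genes, median 0.19). With sgRNA 11, 68 rose and 4 fell (median 0.26), and with sgRNA 15, 46 rose and 8 fell (median 0.11). The direct comparison called 60 of them lower with sgRNA 15 and 0 higher. Their sum was 54500, 53762 and 53959 CPM in safe libraries, 63644, 63237 and 65660 CPM with sgRNA 11, and 59331, 57037 and 59443 CPM with sgRNA 15, with no overlap between the 3 groups.

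**Figure D4:**
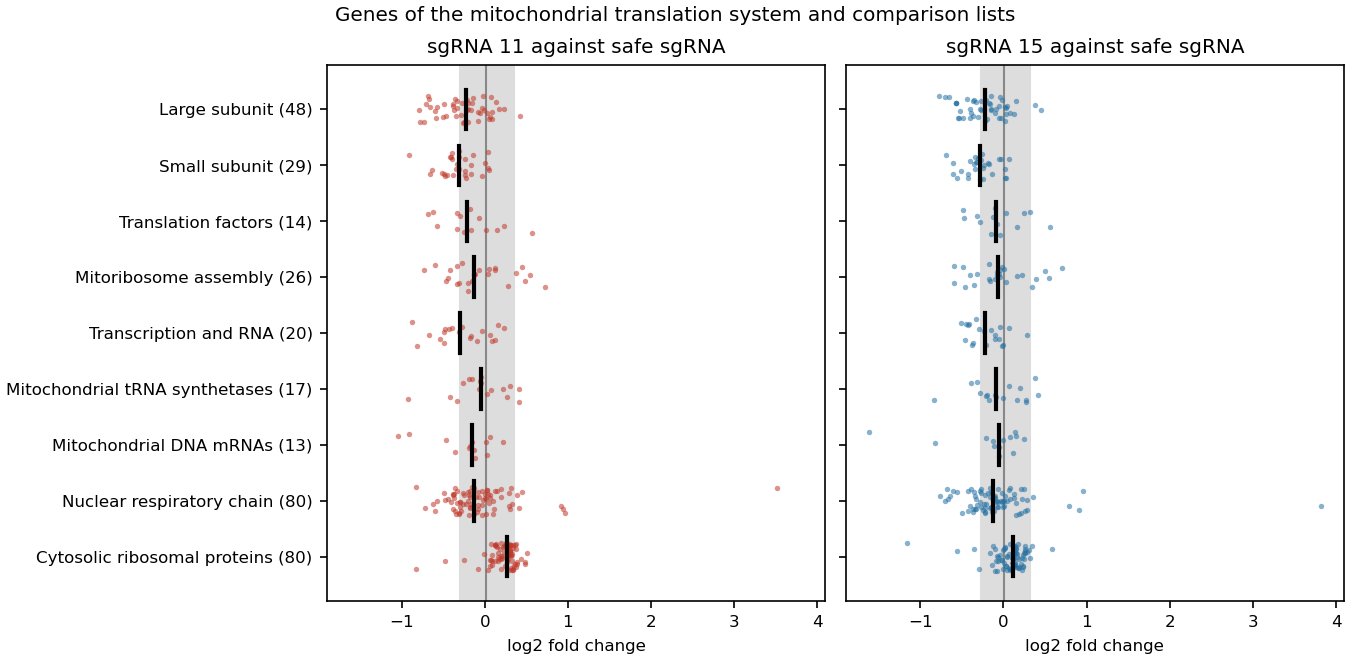
Log2 fold change of each tested gene (points) and the median (black bar) for the 2 subunits and for other lists of mitochondrial and ribosomal genes, with sgRNA 11 on the left and sgRNA 15 on the right, and the number of genes tested in parentheses. The grey band is the middle of all 13453 genes, from the lower to the upper quartile, around a median of 0.01. The subunit medians are -0.23 and -0.31 with sgRNA 11 and -0.22 and -0.28 with sgRNA 15, and the cytosolic ribosomal proteins lie to the right, at 0.26 and 0.11.

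Members often share a start region with a neighbour on the other strand. A gene that starts within 1000 bp in the opposite direction was found for 33 of 77 members (42.9%), compared with 17.6% of 11295 tested protein-coding genes. Mrpl46 and Mrps11 face each other in this way, and both fell (-0.35 and -0.29 by the mean of both guides). Of 28 tested partners that are not members, 11 fell, 7 rose and 10 were not called by the mean of both guides (median -0.03). Of all genes, 33.3% fell and 34.7% rose by that mean. Mrpl49 starts 59 bp from Fau, a gene for a cytosolic ribosomal protein. Mrpl49 fell by 0.66 and Fau rose by 0.37 on the log2 scale. Mrpl18 and its partner Tcp1, a subunit of the cytosolic chaperonin, both fell (-0.74 and -0.59).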

How the data were processed

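For each of 9 libraries the authors deposited a table of read counts by gene. The submitters' processing notes name STAR, HTSeq and mm10. Tool versions, the annotation and whether counting used strand were not given in the sources used here. HTSeq's tallies of reads assigned to no gene, 19.3 to 20.7% of each table, stayed out of library sizes and tests. Counts are lost where genes overlap, and members sharing at least 10% of their exons with another gene are called uncertain (17 of 77).

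Symbols, positions, exon overlap, length and GC content came from a GENCODE annotation of mm10, which holds 55227 of the 55487 identifiers. Counts were analysed in R 4.3.3 with edgeR 4.0.16: filterByExpr (minimum count 10), TMM scaling and a robust quasi-likelihood fit to all 9 libraries (6 residual degrees of freedom), with 2-sided tests of 4 contrasts, Benjamini-Hochberg adjustment over all genes tested and a threshold of 0.05. The mean of both guides weighs them equally, and its error leaves out the difference between guides. CPM are TMM-scaled, and values after ± are SD. Depth, 16405296 to 25613961 counts per library, sets the precision. In data simulated for sgRNA 11 against safe (13283 genes), recovery was 83.6% for 1.2-fold and 98.5% for 1.5-fold changes. There were 10 calls among 13083 unchanged genes. Only 67 genes were changed 1.2-fold, 67 genes 1.5-fold and 66 genes 2-fold, whereas 65.8% of genes were called in the data. The simulation therefore does not give the share of false calls in these data. Nor can it show whether the spread between replicates is technical.

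The members and lists were chosen with earlier results of these data known, so lists are described by counts and medians, with no test. Genes named with values were, per subunit, the 5 higher and 5 lower called members with the largest change by the mean of both guides, the 5 higher and 5 lower between guides, the 3 highest and 3 lowest by RPKM, Mrps18a, Mrps18b, Mrps18c, Mrps30, Mrps36, and up to 4 genes with the smallest p in each other list. A gene that this rule picks among the tRNA synthetases is not reported here. The other genes named for a structural site, a promoter or a shared start region were chosen after their values were seen, as were Mrpl3 and Mrpl19 in the comparison between guides, Mrpl52 with sgRNA 11 and the genes that replace others in rank under another length. The gene lists held 1 translation factor (Mtrfr) and 1 RNA-processing gene (Fastkd4) that matched no identifier.

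Alternatives were DESeq2 1.42.0, limma-voom (limma 3.58.1), relative log expression size factors, library size only, a correction for GC content and exon length by spline offsets, no filter on low counts, a mean of at least 5 CPM, the replicate number as a block, only the groups compared, a minimum fold change of 1.2, subunits by place in the structure and each library left out. Leaving out uncertain members was added after seeing the data. Replicate pairs differed by more than sampling noise (chi-square per degree of freedom 1.76 to 6.83).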

Additional observations from a re-analysis of the deposited data

Results flagged for a closer look

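The effects of the 2 guides differed for 10 of 77 members, by edgeR's quasi-likelihood test of sgRNA 15 against sgRNA 11, which called 33.5% of all genes. Higher with sgRNA 15, as log2 differences, were Mrpl50 (0.31, adjusted p = 3.08e-05), Mrps18b (0.24, adjusted p = 0.00525), Mrpl47 (0.19, adjusted p = 0.0424), Mrps22 (0.18, adjusted p = 0.0113), Mrps10 (0.15, adjusted p = 0.0129), Mrpl19 (0.14, adjusted p = 0.000622) and Mrpl3 (0.0926, adjusted p = 0.0317). Lower with sgRNA 15 were Mrpl14 (-0.20, adjusted p = 0.0279), Mrps34 (-0.19, adjusted p = 0.0187) and Mrpl28 (-0.11, adjusted p = 0.0101). After a correction for GC content and exon length the calls of Mrpl14 (-0.09), Mrps34 (-0.11), Mrpl28 (-0.0153), Mrpl47 (0.13), Mrps10 (0.09) and Mrpl3 (0.03) were lost, and DESeq2 did not call Mrpl14, Mrps34, Mrpl47 or Mrpl3. Mrps34 and Mrpl14 overlapped between the guides, as did Mrps10, and in the other 7 all 3 libraries of one guide lay beyond those of the other. Summed macrophage markers (9175 to 9291 CPM with sgRNA 11, 7424 to 7507 CPM with sgRNA 15) also differed between the guides. Single markers went both ways, with 3 of 10 higher and 6 lower with sgRNA 15. The part of these markers in the differences of the members was not tested.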

How the results depend on the processing

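The counts of members that fell against safe stayed within 1.5 times their value under all alternatives run (by the mean of both guides, 22 to 36 large and 15 to 23 small subunit genes), and every median against safe stayed below 0. Of 92 called results for the named genes, 78 kept their direction and call under all alternatives run for them. Most of these genes were named for a large change or a small p in these data. Some count in several contrasts and some are not members, so this share does not describe the calls of all members. The counts of large subunit genes that rose were less stable. With DESeq2 they were 3 for sgRNA 11 and 3 for the mean of both guides, with a fold change of at least 1.2 they were 1, 2 (sgRNA 15) and 2, and without uncertain members 2, 1 (sgRNA 15) and 2. Without any 1 library they were 3 to 5 with sgRNA 11, 3 to 5 with sgRNA 15 and 3 to 6 by the mean of both guides. Small subunit genes that rose became 1 with each guide and by the mean with library size only, 2 (sgRNA 11) and 1 (mean) after the GC and length correction, with or without the block, and 1 (sgRNA 11 and mean) at a mean of at least 5 CPM.

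With library size only the medians were -0.28 (small, sgRNA 11), -0.18 (large, sgRNA 15), -0.24 (small, sgRNA 15), -0.18 (large, mean) and -0.27 (small, mean). After the GC and length correction they were -0.31 and -0.37 (large and small, sgRNA 11), -0.28 and -0.33 (sgRNA 15) and -0.30 and -0.38 (mean). That correction moved the median of all genes to -0.03 with sgRNA 11 and -0.04 with sgRNA 15. Leaving out uncertain members gave -0.25 (small, sgRNA 15). Without any 1 library the medians were -0.27 to -0.22 (large, sgRNA 11), -0.35 to -0.30 (small, sgRNA 11), -0.26 to -0.18 (large, sgRNA 15), -0.33 to -0.28 (small, sgRNA 15) and -0.34 to -0.29 (small, mean).

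Between the guides, large subunit genes higher with sgRNA 15 were 2 with DESeq2, 7 with library size only, 2 with no filter, 1 at the 1.2-fold minimum and 2 without uncertain members. Lower large subunit genes were 1, with DESeq2 and without uncertain members, and 0 at 1.2-fold. Lower small subunit genes were 0 with DESeq2, at 1.2-fold and without uncertain members, and 2 at 5 CPM, and higher ones were 0 at 1.2-fold. Without any 1 library these were 2 to 5 and 0 to 3 large, and 1 to 3 and 0 to 2 small subunit genes.

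Reversed values were those of Mrps18a with library size only (0.00105 with sgRNA 11, 0.0125 with sgRNA 15, 0.00676 by the mean), of Mrpl2 with sgRNA 11 after the GC and length correction (-0.0344), and of Aurkaip1 by the mean after it (-0.0589). In other cases the cause was not tested.

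No pairing by replicate number was evident, with correlations of same-numbered deviations of -0.008 to 0.058. The labels give only replicate numbers and do not say whether same-numbered libraries were handled together. With the replicate number as a block, 32 large subunit genes fell and 5 rose with sgRNA 11, and 30 fell and 5 rose with sgRNA 15, and between the guides 6 large subunit genes were higher and 3 lower. The block with the GC and length correction gave medians of -0.31 and -0.37 (sgRNA 11), -0.28 and -0.32 (sgRNA 15) and -0.29 and -0.38 (mean), 8 large subunit genes higher between guides, -0.0367 for Mrpl2 and -0.0587 for Aurkaip1. Grouping by place in the structure, with 5 proteins of other symbols and without Mrps36, gave 34 large and 22 small subunit genes that fell by the mean of both guides.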

Other observations

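The 2 mitochondrial rRNAs and the 2 mRNAs that follow them on mitochondrial DNA all fell by the mean of both guides: mt-Rnr1 by 1.16, mt-Rnr2 by 1.07, mt-Nd1 by 0.87 and mt-Nd2 by 0.28 on the log2 scale. mt-Rnr1 had 82.6 ± 11.8 CPM in safe libraries, 40.0 ± 7.93 with sgRNA 11 and 34.7 ± 1.76 with sgRNA 15 (SD, n = 3). mt-Rnr2 had 340 ± 23.3, 155 ± 7.44 and 171 ± 3.65 CPM. The summed mRNAs of mitochondrial DNA were 16120 to 17535 CPM in safe libraries, 14107 to 15064 with sgRNA 11 and 15537 to 15754 with sgRNA 15, with no overlap between safe libraries and those with a guide.

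Neighbours that share a start region with a member gave further values. Mrpl2 and Klc4, a kinesin light chain gene, start 207 bp apart, and Klc4 rose by 1.02 with sgRNA 11 and by 1.10 with sgRNA 15 while Mrpl2 differed by 0.09 and 0.08. Pnpla7, a lysophospholipase gene that starts 935 bp from Mrpl41, rose by 1.21 and 1.31, and Mrpl41 differed by -0.24 and -0.05.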
